A study of Mus musculus with 6 samples.

Results

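Notch4, Ephb4, Ptprb, Calcrl, Ednrb and Tspan12 encode cell-surface proteins that act in blood vessels, some of them in arterial or venous identity. Each was read from 1 row of a mouse RNA sequencing table, so 6 of its 53509 rows are described here. The row names could not be used to find these genes, because most rows carry the name of one gene and the intervals of another stretch of the genome. Assuming reads in GRCm38 coordinates, a row was taken for the gene on whose exons its intervals lie in that assembly. By that rule the row named Btnl2 lies on Notch4, the row Cnot2 on Ptprb, the row Gm13710 on Calcrl and the row Scel on Ednrb, while the rows Ephb4 and Tspan12 touch their own genes. No other row was assigned to any of the 6 genes. Rows were matched to genes by position alone, but the 6 genes were picked with earlier results of these data known.

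The libraries were made from total RNA of C57BL/6 mice. The series compared 3 controls, whose genotype is given as Wild type, with 3 samples whose genotype field holds myocardial ischemia-reperfusion injury, a stop and return of blood flow to the heart muscle. The second group is called MIRI below. The design text gives an age of 21 days, and the deposited files of the MIRI samples carry the word mutant, so the groups may differ in a genotype, the injury or both. The tissue field says retina, the extraction protocol says intervertebral disc and the injury is one of the heart. Sex, the time after injury and whether the 3 samples of a group are separate animals are not given in the sources used here, so each p-value rests on the spread among these samples alone, and that spread may be technical.

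Arteries and veins are lined by endothelial cells that carry different receptors. Notch signalling favours arterial identity: a ligand on a neighbouring cell releases the intracellular part of the receptor, which then acts on transcription. EphB4 marks veins and meets its ligand ephrin-B2 on arteries. VE-PTP, the product of Ptprb, removes phosphate from the angiopoietin receptor Tie2 and from junction proteins. CALCRL becomes a receptor for adrenomedullin or calcitonin gene-related peptide according to the RAMP protein it pairs with, and the endothelin B receptor on endothelium binds endothelin and clears it from the blood. TSPAN12 is a tetraspanin that helps Frizzled-4 receive the norrin signal, best known from retinal vessels.

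The stretches of each gene that the rows cover differ, and they decide what a count can stand for. For 5 genes a coding stretch that the row meets is printed below, 5′ to 3′ on the strand of the gene, from GENCODE M21 transcripts on GRCm38. Capitals mark bases inside the row and lower case marks bases of the same exon outside it. They are shown so that the counted coding sequence can be seen. The Notch4 stretch is exon 12 (chr17:34573749-34573908, plus strand), which codes for extracellular sequence. The Ephb4 stretch is exon 15 (chr5:137372024-137372217, plus strand), which codes for part of the tyrosine kinase domain and lies wholly in the row. For Ptprb it is the end of exon 8 (chr10:116328167-116328216, plus strand), the one place where that row meets coding sequence. For Ednrb it is part of exon 2 (chr14:103842994-103843119, minus strand), again the sole coding stretch in its row, and for Tspan12 it is exon 5 (chr6:21835388-21835523, minus strand). The Calcrl row holds no coding base.
Notch4: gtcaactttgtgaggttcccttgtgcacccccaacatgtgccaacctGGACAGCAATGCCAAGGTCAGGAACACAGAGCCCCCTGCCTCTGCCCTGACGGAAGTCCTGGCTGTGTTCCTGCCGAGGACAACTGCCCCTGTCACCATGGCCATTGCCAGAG
Ephb4: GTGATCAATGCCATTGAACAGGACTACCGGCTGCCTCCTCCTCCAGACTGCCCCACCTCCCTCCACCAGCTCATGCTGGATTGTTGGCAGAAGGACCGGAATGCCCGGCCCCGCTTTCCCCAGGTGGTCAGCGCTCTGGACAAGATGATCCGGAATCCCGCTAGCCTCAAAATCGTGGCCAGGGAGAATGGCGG
Ptprb: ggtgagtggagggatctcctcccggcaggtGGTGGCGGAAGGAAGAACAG
Ednrb: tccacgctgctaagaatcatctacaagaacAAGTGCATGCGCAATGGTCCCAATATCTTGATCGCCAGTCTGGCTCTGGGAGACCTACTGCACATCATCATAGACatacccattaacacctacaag
Tspan12: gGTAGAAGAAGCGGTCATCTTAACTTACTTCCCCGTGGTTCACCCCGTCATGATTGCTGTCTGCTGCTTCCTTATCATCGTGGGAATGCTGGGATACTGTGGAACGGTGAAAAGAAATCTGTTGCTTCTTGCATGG

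The Tspan12 row was the one that measured nearly a whole gene: 3301 of its 3311 bases (99.7%) lie on Tspan12 exons (chromosome 6, 21771395 to 21852515). The Calcrl row of 965 bases is 82.2% exonic, and all 793 exonic bases belong to the untranslated part of the last exon, exon 16 (gene at chromosome 2, 84330626 to 84425411). The Notch4 row of 2587 bases (gene at chromosome 17, 34564268 to 34588503) has 1225 exonic bases, of which 636 are coding, and 1362 bases of intron. The other 3 rows are mostly not exon. The Ephb4 row of 4640 bases (gene at chromosome 5, 137350109 to 137378669) has 694 exonic bases, all coding, against 3405 of intron. The Ptprb row of 4076 bases (gene at chromosome 10, 116275523 to 116389535) has 163 exonic bases, 3697 of intron and 216 outside the gene. The Ednrb row of 2503 bases (gene at chromosome 14, 103814625 to 103844402) has 135 exonic bases, 636 of intron and 1732 outside the gene. Counts were not split within a row, so how many of them came from exons was not tested.

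**Figure D1:**
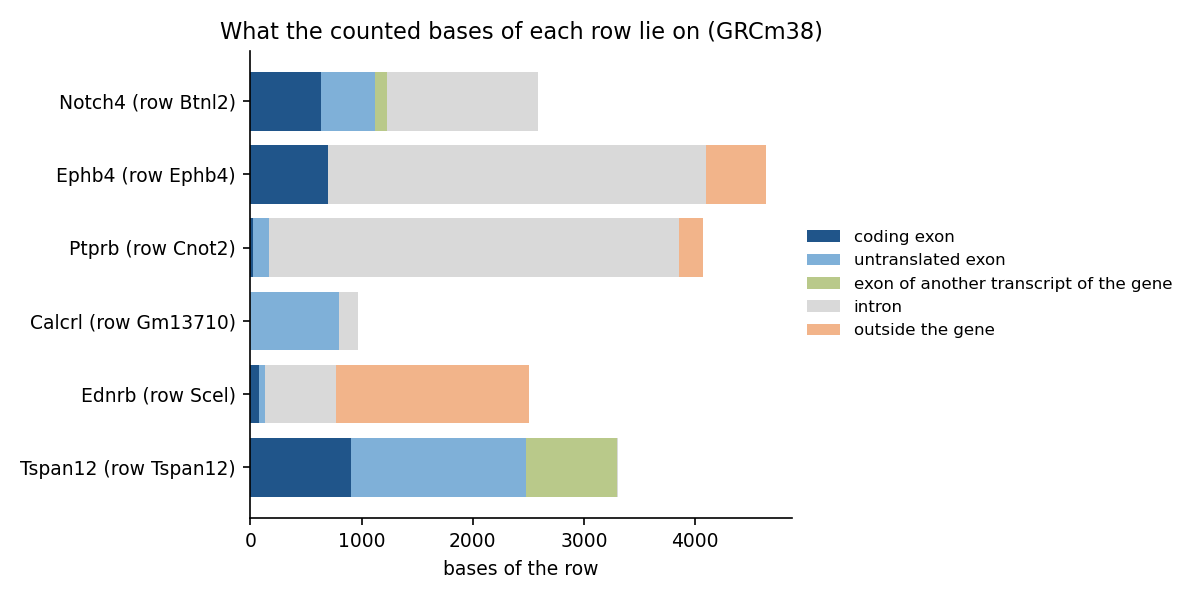
Bases of each of the 6 rows (x axis, in bases) by what they lie on in GRCm38: coding exon, untranslated exon, exon of another transcript of the gene, intron, or outside the gene. Tspan12 is almost wholly exonic with 3301 of 3311 bases, while Ptprb with 163 of 4076 and Ednrb with 135 of 2503 exonic bases are the least exonic.

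Rows that bear the names of these genes elsewhere in the table held almost nothing. The row named Notch4 meets 1707 exon bases, 1364 of them on Cyp21a1, a steroid hydroxylase gene, and had at most 1 count per library. The row named Ptprb meets 765 exon bases, 574 of them on Ptprr, another phosphatase gene, and had 2 to 17 counts. Most bases of both rows lie on no exon. The rows named Calcrl and Ednrb touch no exon and had at most 4 and 1 counts. Reading by name would thus have put 4 of the 6 genes near 0. The rows named Notch4, Ptprb, Calcrl and Ednrb hold 8061, 13333, 4882 and 4266 bases. These are the full exon lengths of the named genes in GRCm38. Why names and positions part was not tested.

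The 6 libraries held between 6859481 and 9250952 counts, and levels are given as CPM, the counts of a library scaled to its total. Genes that define the labelled tissues were low by position: summed over the measured listed genes, photoreceptor markers reached 13.9 to 26.1 CPM (6 of 12 measured), cardiomyocyte markers 1.02 to 4.44 (5 of 14, Myh6 at 0 in each library) and disc and cartilage markers 1.76 to 7.67 (5 of 14). Fibroblast markers summed to 59220 to 82170 CPM (9 of 15). Mural cell markers summed to 116 to 182 CPM (5 of 14), leukocyte markers to 86.3 to 146 (5 of 14), lymphatic markers to 161 to 251 (4 of 9), platelet markers to 49.2 to 56.9 (3 of 8) and melanocyte, Schwann and glial markers to 45.7 to 76.2 (7 of 17). The Y-linked helicase gene Ddx3y was at 1.22, 0.548 and 2.70 CPM in controls 1 to 3 and at 98.6, 6.71 and 24.1 in MIRI 1 to 3, so the libraries differ in Y-linked RNA across and within the groups. Endothelial markers (9 of 20 measured) summed to 369, 892 and 744 CPM in controls 1 to 3 and to 190, 239 and 229 in MIRI 1 to 3. The gene Eng alone held 197.3, 252.1 and 268.5 CPM of the control sums. It held 137.5, 210.5 and 199.0 CPM of the MIRI sums, which is most of each. The endothelial and Y-linked levels move with the group, and their part in the results below was not tested.

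Notch4, an endothelial Notch receptor, was lower in every MIRI library than in any control. Its row had 21.7, 25.6 and 28.6 CPM in controls 1 to 3, against 16.7, 18.7 and 17.1 CPM in MIRI 1 to 3, from 124 to 265 counts per library. The groups did not overlap, and the MIRI libraries lay close together. The means were 25.3 ± 3.50 and 17.5 ± 1.05 CPM (SD, n = 3), and the log2 fold change was -0.53 ± 0.16 (SE), with a 95% interval of -0.90 to -0.16. It did not pass the test (edgeR quasi-likelihood, Benjamini-Hochberg adjusted p = 0.76 over 15777 rows). In bulk RNA such as this, fewer cells of a type and less RNA per cell cannot be told apart.

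Ephb4, the receptor tyrosine kinase of veins, differed less. Its row had 84.9, 108 and 101 CPM in controls 1 to 3, against 86.0, 74.4 and 80.7 in MIRI 1 to 3. Control 1 lay just under MIRI 1, so the groups overlapped. The means were 97.9 ± 11.8 and 80.4 ± 5.82 CPM (SD, n = 3), a log2 fold change of -0.28 ± 0.12 with an interval of -0.55 to -0.01 (edgeR adjusted p = 0.9996).

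Ptprb, the endothelial receptor phosphatase, was spread widely within the controls. Its row had 48.9, 137 and 85.9 CPM in controls 1 to 3, against 34.3, 54.8 and 48.5 in MIRI 1 to 3. Control 2 was the highest, and control 1 lay between MIRI 2 and MIRI 3, so the groups overlapped. The means were 90.5 ± 44.1 and 45.9 ± 10.5 CPM (SD, n = 3), with a log2 fold change of -0.96 ± 0.34 and an interval of -1.73 to -0.19 (edgeR adjusted p = 0.957). The value rested in part on control 2: without it the log2 fold change was -0.57, and without both control 2 and MIRI 1 it was -0.38. A second row, Kcnmb4os2, lies inside the Ptprb gene and touches no exon. It had 2.84, 18.4 and 4.76 CPM in controls 1 to 3, against 1.88, 2.92 and 2.03 in MIRI 1 to 3, so control 2 was again the highest and MIRI 1 the lowest library.

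Calcrl, the receptor subunit for adrenomedullin, had a wide spread inside both groups. Its row had 56.3, 153 and 51.1 CPM in controls 1 to 3, against 95.7, 15.2 and 46.3 in MIRI 1 to 3. Control 2 and MIRI 1 stood above the other 4 libraries, 1 from each group. They were set apart with the values known. Control 2 was 2.85 times the mean of the other controls and MIRI 1 was 3.11 times the mean of the other MIRI libraries. The 4 others ranged from 15.2 to 56.3 CPM, with a mean of 42.2 ± 18.5 (SD, n = 4), MIRI 2 being the lowest. The group means were 86.9 ± 57.5 and 52.4 ± 40.6 CPM (SD, n = 3), and the log2 fold change was -0.73 ± 0.58, with an interval of -2.06 to 0.59 that spans 0 (edgeR adjusted p = 0.9996). It was -0.07 without control 2, -1.44 without MIRI 1, -0.31 without MIRI 2 and -0.78 without both control 2 and MIRI 1.

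The spread of Calcrl was large beside that of other rows at like levels. Among 5322 rows with a mean of 20 to 200 CPM, the coefficient of variation (SD over mean) had a median of 10.8% in controls and 11.4% in MIRI. For Calcrl it was 66.2% in controls, above 99.6% of those rows, and 77.5% in MIRI, above 99.5% of them. Ptprb had 48.7% in controls, above 98.2% of rows, and 22.9% in MIRI, above 84.4%, and Tspan12 had 23.0% and 30.6%. In controls Notch4 (13.8%) and Ephb4 (12.1%) lay near the median, and in MIRI they lay below it (6.01% and 7.24%). Ednrb, whose mean is under this range, had 53.2% and 87.4% from few counts. Counting error is small at these levels: the 95% Poisson interval was 144 to 162 CPM for Calcrl in control 2 and 88.8 to 103 in MIRI 1, and such intervals cover counting error only.

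The same libraries stood out over Calcrl introns. Rows Gm52947 and Gm52948 lie inside the gene and touch no exon. Row Gm52947 had 6.50, 22.7 and 4.86 CPM in controls 1 to 3, against 18.4, 0.583 and 3.52 in MIRI 1 to 3. Row Gm52948 had 3.39, 14.2 and 3.35 CPM, then 15.2, 0.583 and 3.25. In both, control 2 and MIRI 1 were the highest libraries and MIRI 2 the lowest, as in the row on the last exon, and MIRI 2 rested on 4 counts in each. Control 2 and MIRI 1 also deviated together over the whole table: of the 9 pairs of a control and a MIRI library, theirs had the highest correlation of deviations from the group means (r = 0.382 across rows, which are not independent replicates).

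**Figure D2:**
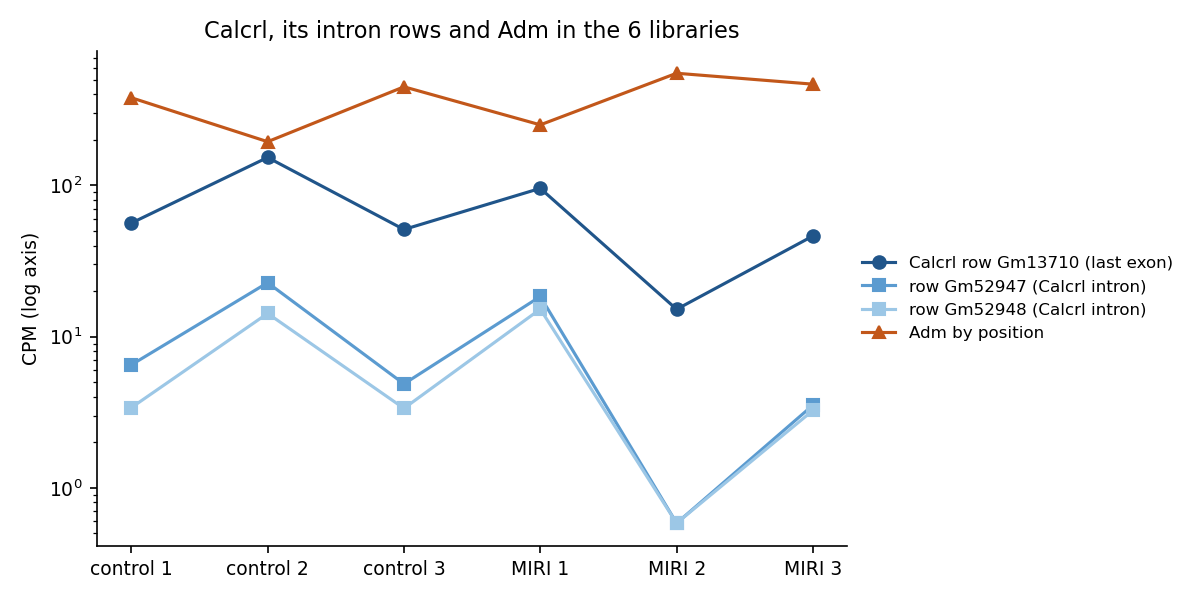
Level in each of the 6 libraries (y axis, CPM on a log scale) of the Calcrl row on the last exon, of 2 rows inside Calcrl introns and of the adrenomedullin gene Adm by position; lines only join the points of one row or gene, since libraries have no order. Calcrl peaks at 153 CPM in control 2 and 95.7 in MIRI 1, where Adm has its 2 lowest levels, 195 and 252 CPM.

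Ednrb, the endothelin B receptor, was near the limit of detection. Its row gave 18, 40 and 21 counts in the 3 controls, against 6, 0 and 7 counts in MIRI 1 to 3, that is 2.44, 5.48 and 2.27 CPM against 0.807, 0 and 0.948. The groups did not overlap. The 0 in MIRI 2 has a 95% Poisson interval that reaches 0.538 CPM. The means were 3.40 ± 1.81 and 0.585 ± 0.512 CPM (SD, n = 3). Summed counts were 79 in controls and 13 in MIRI, a ratio of 5.50 after scaling to depth (exact interval 3.04 to 10.8, counting error alone). The log2 fold change was -2.46 ± 0.68 with an interval of -4.01 to -0.90, and it did not pass (edgeR adjusted p = 0.591). Since 1732 of the 2503 bases lie outside the gene, these few counts need not all be Ednrb RNA.

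Tspan12, the tetraspanin of norrin signalling and the best-covered gene of the 6, differed by less than the spread between replicates. Its row had 34.8, 32.2 and 48.6 CPM in controls 1 to 3, against 22.6, 38.6 and 42.7 in MIRI 1 to 3. Control 3 was the highest and MIRI 1 the lowest library. The means were 38.5 ± 8.85 and 34.6 ± 10.6 CPM (SD, n = 3), with a log2 fold change of -0.15 ± 0.27 and an interval of -0.77 to 0.47 (edgeR adjusted p = 0.9996). Its sign was not stable: it was 0.08 without control 3 and 0.11 without MIRI 1.

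**Figure D3:**
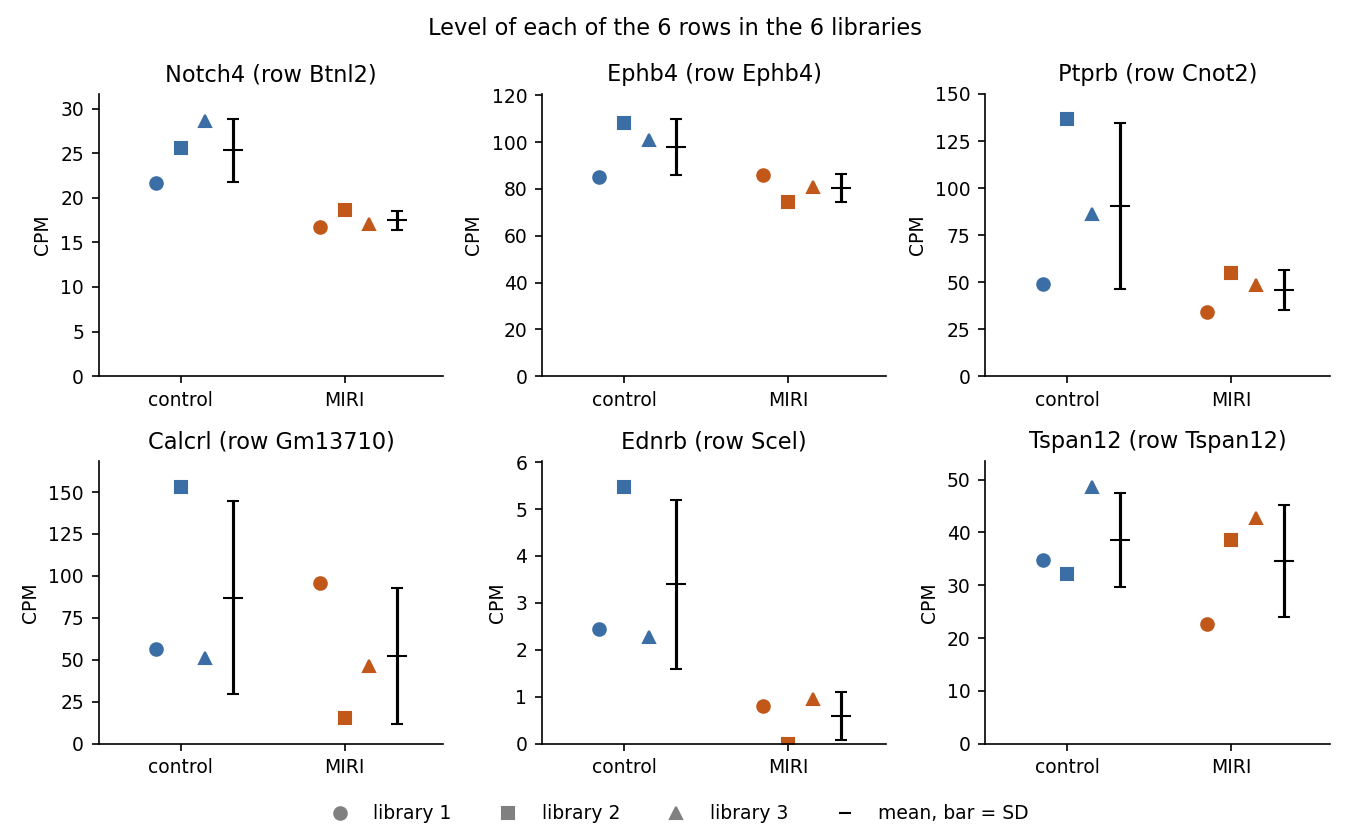
Level of each of the 6 rows in the 3 control and 3 MIRI libraries (y axis, CPM from 0, a separate scale per panel); points are libraries, and bars give the mean and SD. The groups are apart for Notch4 and Ednrb and overlap for the other 4, and Calcrl has 1 high library in each group, control 2 at 153 and MIRI 1 at 95.7 CPM.

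Read together, all 6 fitted differences were below 0, and none passed. At an adjusted p of 0.05, edgeR called 0% of the 15777 tested rows lower and 0% higher, with a smallest adjusted p of 0.105. Groups that did not overlap, with MIRI lower, were found for 2 of the 6 rows, Notch4 and Ednrb, against 818 rows (5.18%) in the table; groups apart with MIRI higher were found for 0 of the 6, against 3.63%. An unadjusted p under 0.05 in the lower direction was found for 4 of the 6, Notch4, Ephb4, Ptprb and Ednrb, against 429 rows (2.72%), and in the higher direction for 0, against 1.62%. The median log2 fold change over all rows was 0.01, and 47.5% of rows were below 0. Without a low-count filter edgeR called Ptprb, Calcrl and Ednrb lower, at adjusted p of 1.124e-07, 2.474e-04 and 1.703e-04, where 231 of 33153 rows (0.697%) were called lower; the standard error of Calcrl was then 0.152, against 0.584 with the filter. The DESeq2 test called 0 of the 6, where 79 rows (0.377%) were called lower. The 6 genes were picked with earlier results of these data known, so these counts are a description. Exact permutation tests of the 6 rows, two-sided on log2(CPM + 0.5), gave 0.1 for Notch4 and Ednrb, 0.2 for Ephb4 and Ptprb, 0.4 for Calcrl and 0.7 for Tspan12, and 3 against 3 libraries allow no p below 0.1.

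**Figure D4:**
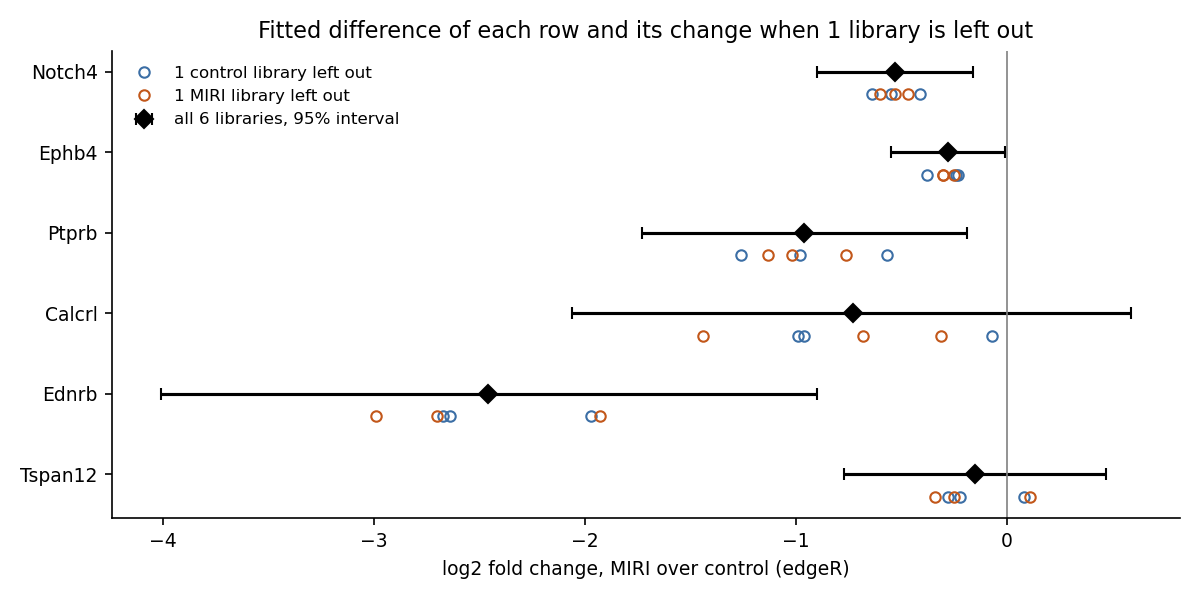
Fitted log2 fold change of MIRI over control for each row (x axis; diamonds with 95% intervals) and, below each, its values with 1 library left out (open circles, blue for a control and orange for a MIRI library). Notch4, Ephb4, Ptprb and Ednrb stay below 0 throughout, Calcrl moves between -1.44 and -0.07, and Tspan12 crosses 0.

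The high and low libraries were not the same for each gene. Control 2 had the highest level of 4 of the 6 genes and control 3 of the other 2, Notch4 and Tspan12. MIRI 1 had the lowest level of 3 (Notch4, Ptprb and Tspan12) and MIRI 2 of 3 (Ephb4, Calcrl and Ednrb). MIRI 1 was thus the lowest library for Ptprb while it was the second highest for Calcrl.

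Per kilobase of row, averaged over the 6 libraries, the Calcrl row was at 72.2 CPM, the Ephb4 row at 19.2, the Ptprb row at 16.7, the Tspan12 row at 11.1, the Notch4 row at 8.27 and the Ednrb row at 0.795. This orders rows, not transcripts, since the rows hold unequal shares of exon. As a scale, rows inside genes that touch no exon (10009 rows of at least 500 bases) had a median of 0.194 CPM per kilobase. Their 90th percentile was 5.31 and their 99th was 20.5. The Ephb4, Ptprb, Tspan12 and Notch4 rows lay between these percentiles, and the Calcrl row lay above both. The Ednrb row lay between the median and the 90th percentile. Neighbours in the order overlapped in their range over libraries, except that every library had less Ednrb than Notch4 on this scale.

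The partners of each receptor were read by position from lists of pathway genes, each list holding the receptor itself, with counts summed per gene: of 5912 genes put to the edgeR test, 0% passed in either direction, with a smallest adjusted p of 0.0821. Groups that did not overlap made up 5.48% of these genes with MIRI lower and 3.45% with MIRI higher. The share with an unadjusted p under 0.05 was computed for rows only, where edgeR gave 2.72% lower and 1.62% higher. The median log2 fold change over all 5912 genes was 0.01. The rows met unequal stretches of these genes, from 63 exon bases for Crcp, 96 for Lrp5 and 135 for Edn1 to 16117 for Svep1. A level by position need not stand for the whole gene.

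In the Notch list, 9 of 28 genes were measured and 7 tested with edgeR, 0 passed in either direction (2 lower and 0 higher at an unadjusted p under 0.05, and 0 called by DESeq2), and the median log2 fold change was -0.03. Notch4 alone had groups that did not overlap among the tested genes. Notch1, the main arterial Notch receptor, was at 82.2 ± 19.6 CPM in controls and 60.9 ± 8.79 in MIRI (SD, n = 3), a log2 fold change of -0.43 ± 0.18 with overlapping groups. Notch2 had the opposite sign, 99.8 ± 6.60 against 119 ± 13.0 CPM (0.25 ± 0.11), and the coactivator gene Maml2 was at -0.17 ± 0.15. Ncstn, a subunit of the protease that releases the intracellular part, was at -0.02 ± 0.13.

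In the list of Eph receptors and ephrins, 11 of 22 genes were measured, 7 were tested and 0 passed with edgeR (1 lower and 0 higher at an unadjusted p under 0.05, and 0 called by DESeq2), with a median of -0.23. Ephb2, another ephrin-B receptor, was the one tested gene whose groups did not overlap, and it lay on the higher side (26.4 ± 3.74 CPM in controls, 33.3 ± 3.41 in MIRI, log2 fold change 0.35 ± 0.16). The ligand gene Efna1 was at -0.46 ± 0.29, and the receptor genes Epha2 and Epha7 were at -0.04 ± 0.23 and -0.23 ± 0.31. Ephrin-B2, the partner of EphB4 on arteries, was not analysed here.

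Of the 6 pathway lists, the one around VE-PTP had the lowest median after the endothelin list. In this list of angiopoietins, Tie receptors and Ptprb, 6 of 10 genes were measured and tested, 0 passed with edgeR (4 lower and 0 higher at an unadjusted p under 0.05), 3 had groups that did not overlap with MIRI lower (Tie1, Tek and Angpt2), and the median was -0.86. Tie1, the partner receptor of Tie2, gave 172, 870 and 693 counts in the 3 controls, against 43, 0 and 8 in the 3 MIRI libraries (log2 fold change -4.95 ± 0.90, edgeR adjusted p = 0.217). Tek, which encodes Tie2 itself, the receptor that VE-PTP acts on, was at 10.8 ± 2.58 and 4.86 ± 0.590 CPM (SD, n = 3), a log2 fold change of -1.15 ± 0.25 (edgeR adjusted p = 0.286). Tek was called by the DESeq2 test (adjusted p = 0.0484), which called 46 of 7072 genes (0.65%) lower. Tie1 was called by edgeR without a low-count filter (adjusted p = 0.0178), where 28 of 9216 genes (0.304%) were called lower. Angpt2, a Tie2 ligand made by endothelium, was at 93.1 ± 6.85 and 54.8 ± 20.7 CPM, a log2 fold change of -0.77 ± 0.24. The matrix gene Svep1 had a fitted value of 0.30 ± 0.33.

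In the calcitonin receptor list, 6 of 12 genes were measured, 4 were tested, 0 passed with edgeR (0 at an unadjusted p under 0.05, and 0 called by DESeq2), none had groups apart, and the median was 0.17. Adm, which encodes the ligand adrenomedullin, was at 381, 195 and 449 CPM in controls 1 to 3 and at 252, 552 and 468 in MIRI 1 to 3, a log2 fold change of 0.32 ± 0.38. Ramp1, a partner that turns CALCRL into the receptor for calcitonin gene-related peptide, had 2, 0 and 5 counts in the control libraries and 0, 0 and 1 in the MIRI ones. It is named after its values were seen. Gnas, the G protein subunit below these receptors, was at 0.71 ± 0.40, from 9 to 19 counts per library. It was read from a row that meets 1190 of its exon bases, and so low a level need not stand for the whole gene.

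Adm and Calcrl ran in exactly opposite order over the 6 libraries. Libraries with the highest Calcrl, control 2 and MIRI 1, had the lowest Adm, and MIRI 2, with the lowest Calcrl, had the highest Adm. On log2(CPM + 0.5), Pearson's r was -0.92 (exact permutation p = 0.00139, the smallest that 6 libraries can give; Benjamini-Hochberg adjusted p = 0.0361 over the 26 relations between a gene of the 6 and a tested gene of its list, which were computed after the levels were seen). Spearman's rho was -1.0 (exact permutation p = 0.00278, adjusted p = 0.0723). Without control 2 and MIRI 2, the libraries farthest from the median of Calcrl, r was -0.99, and without control 2 alone it was -0.86 with an exact permutation p of 0.0667. The order was opposite within the controls and within the MIRI libraries as well, with 3 libraries in each. Calcrl also ran against Crcp, a gene tied to calcitonin gene-related peptide signalling (r = -0.85, exact permutation p = 0.00556, adjusted p = 0.0482; rho = -0.83, exact permutation p = 0.0583, adjusted p = 0.303), but Crcp spans only 21.1 to 23.8 CPM. Without control 2 and MIRI 2 that r was -0.95, but it was -0.75 without control 2 alone (exact permutation p = 0.233) and -0.86 without MIRI 1 (exact permutation p = 0.0833). Both relations share the libraries and their depths. The permutations take the libraries as exchangeable, while control 2 and MIRI 1 deviated together over the whole table. Svep1, chosen after its values were seen, was also lowest in these libraries, at 366 and 611 CPM against 801 to 948 elsewhere. The share of all genes with an r this far from 0 was not computed. Whether the relations are particular to these pairs was therefore not tested.

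In the endothelin list, 5 of 9 genes were measured, 3 were tested, 0 passed with edgeR (3 lower at an unadjusted p under 0.05), 2 had groups that did not overlap with MIRI lower, and the median was -1.87. Edn1, the ligand gene, gave 43, 117 and 149 counts in the 3 controls, against 44, 16 and 16 in the 3 MIRI libraries. Control 1 and MIRI 1 were thus alike (log2 fold change -1.87 ± 0.49, edgeR adjusted p = 0.49). Edn1 was called by the DESeq2 test (adjusted p = 0.019), which called 46 of 7072 genes (0.65%) lower. It was not called by edgeR without a low-count filter (adjusted p = 0.1503) or by limma-voom (adjusted p = 0.8925). Ece1, the protease that releases active endothelin, was at 307 ± 34.0 and 197 ± 31.6 CPM (SD, n = 3), a log2 fold change of -0.63 ± 0.16 (edgeR adjusted p = 0.438) with groups apart. The receptor, ligand and protease of this system thus all had fitted values below 0.

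In the norrin list, 6 of 15 genes were measured, 5 were tested, 0 passed with edgeR (0 at an unadjusted p under 0.05, and 0 called by DESeq2), none had groups apart, and the median was -0.33. All 5 were below 0, though Tspan12 and Lrp5 were above it without control 3 or without MIRI 1. Fzd4, the norrin receptor, was at 15.2 ± 3.80 and 11.3 ± 3.06 CPM (SD, n = 3), a log2 fold change of -0.42 ± 0.25. Reck and Adgra2, which serve the related Wnt7 signal at the blood-brain barrier, were at -0.33 ± 0.29 and -0.37 ± 0.29. Lrp5, the co-receptor that norrin binds together with Frizzled-4, was at 74.5, 63.5 and 98.7 CPM in controls 1 to 3 and at 55.2, 83.2 and 82.6 in MIRI 1 to 3 (-0.09 ± 0.23). Lrp5 and Tspan12 were both highest in control 3 and lowest in MIRI 1. Over the 6 libraries r was 0.97 (exact permutation p = 0.00278, adjusted p = 0.0361 over the 26 relations) and rho was 0.94 (exact permutation p = 0.0167, adjusted p = 0.217), and r was 0.90 without control 3 and MIRI 1. Here too the share of all genes with such an r was not computed.

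**Figure D5:**
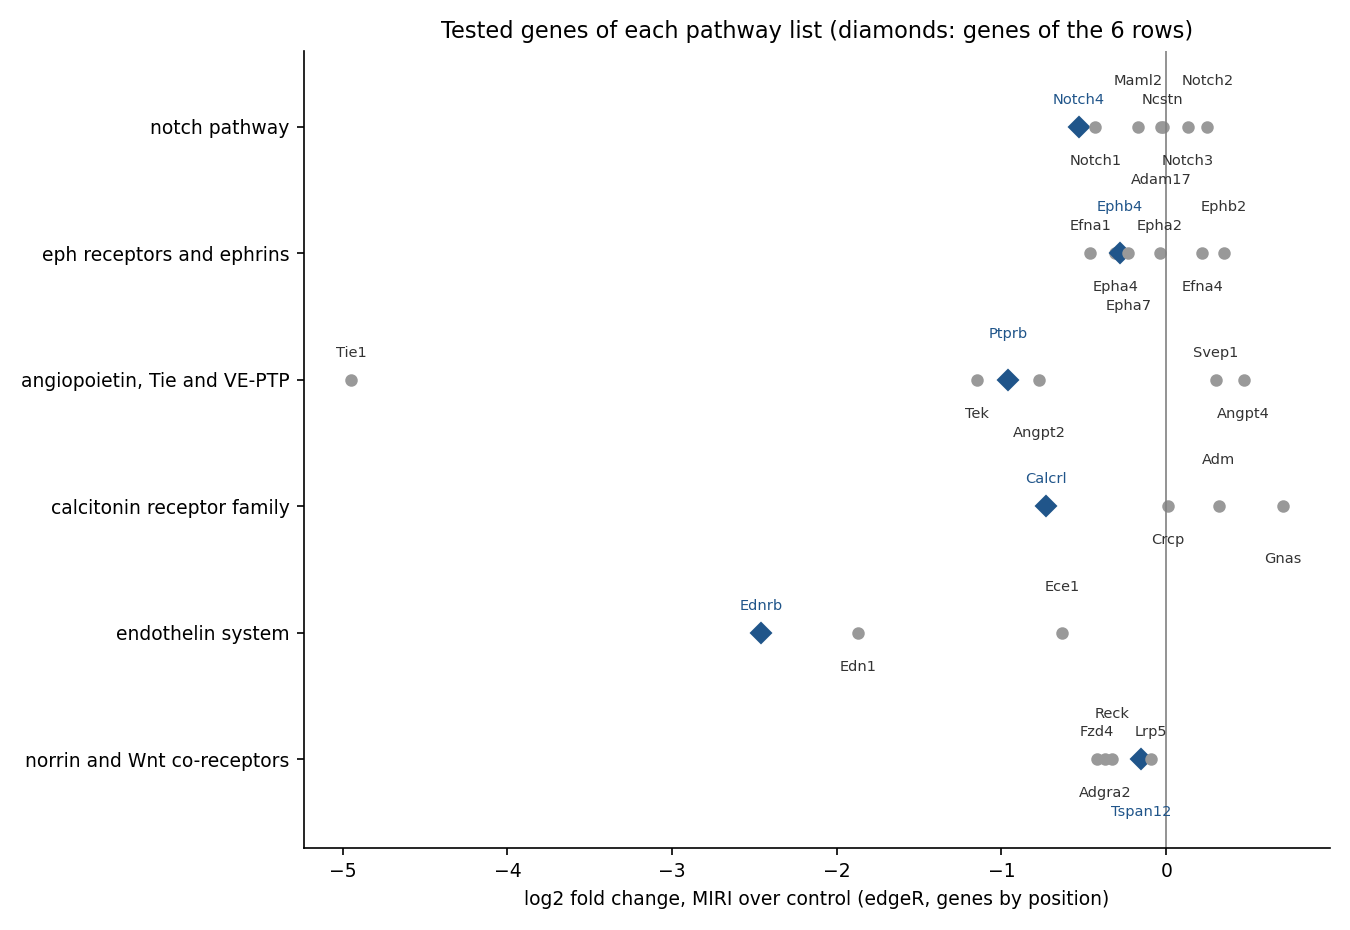
Fitted log2 fold change of MIRI over control (x axis) for each tested gene of the 6 pathway lists (rows); diamonds mark the genes of the 6 rows and circles the others. Endothelin and Tie genes reach furthest below 0, with Tie1 at -4.95, Ednrb at -2.46 and Edn1 at -1.87, while the Notch and Eph genes lie between -0.53 and 0.35.

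Among general endothelial markers, 9 of 20 were measured and tested, with a median log2 fold change of -3.70. Of the 9, 8 had groups that did not overlap with MIRI lower, against 5.48% of all tested genes. edgeR called 0 of the 9 (8 lower at an unadjusted p under 0.05), while the DESeq2 test called 7 lower (Pecam1, Tek, Emcn, Robo4, Vwf, Ecscr and Adgrl4), and edgeR without a low-count filter called 7 lower, with Tie1 in place of Tek. Over all genes, the DESeq2 test called 0.65% lower and edgeR without that filter 0.304%. Pecam1, which encodes the endothelial junction protein CD31, was at 74.8, 355 and 242 CPM in the 3 controls and at 19.1, 1.75 and 4.33 in MIRI 1 to 3. The guidance receptor gene Robo4 and the adhesion receptor gene Adgrl4 were at -5.95 ± 0.74 and -3.43 ± 0.38, and Eng, a TGF-beta co-receptor gene, at -0.38 ± 0.20. The fitted values of the 6 rows all lay above that median, from -2.46 for Ednrb to -0.15 for Tspan12. The share of intron and outside bases differs from row to row, and its part in these values was not tested. Of the venous markers 4 of 9 were tested, among them Ephb4, and 3 (Emcn, Vwf and Selp) had groups apart with MIRI lower. Selp, the adhesion molecule P-selectin, was at 128 ± 54.7 and 28.2 ± 3.64 CPM (SD, n = 3), a log2 fold change of -2.18 ± 0.28 where Ephb4 had -0.28 ± 0.12 (edgeR adjusted p = 0.0821 and 0.9992 by position). Selp was called lower by DESeq2 (adjusted p = 1.562e-11), and by edgeR without a low-count filter (0.004708), without control 1 (0.03602) and without control 2 (0.04558). Arterial markers had 2 tested genes of 14, Notch1 and the guidance receptor gene Unc5b at -0.04 ± 0.19, so arterial and venous genes could not be set against each other. Gja5, an arterial connexin gene, had 0 to 2 counts per library.

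The rows most like each of the 6 were sought among 4948 rows with a mean of at least 10 CPM assigned to another gene, by Pearson's r of log2(CPM + 0.5) over the 6 libraries. These are the highest of many values over few libraries and are given as a description. Nearest to Notch4 were Lrrk1 (0.966), Klhl6 (0.958) and Rapgef5 (0.955), the last at 12.6, 44.9 and 30.7 CPM in controls 1 to 3, against 2.42, 3.50 and 3.66 in MIRI 1 to 3. Nearest to Ephb4 were Ddi1 (0.997), Rnf125 (0.994) and Notch1 (0.978, from 1 of the 2 rows on that gene), another gene of vessel identity. Ptprb was nearest to Gnb1 (0.994), Itpr1 (0.994) and Atrx (0.987), and Calcrl to Sh2d4a (0.993), Junb (0.99) and Fam76b (0.988). Ednrb was nearest to Tmtc2 (0.987), Mecom (0.985) and Cdh13 (0.985), and among the nearest to Tspan12 were Ezh1 (0.997) and Map2 (0.993). A high r does not mean an equal swing: Junb, an immediate early gene, ran from 306 to 397 CPM where Calcrl ran from 15.2 to 153.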

How the data were processed

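RNA was sequenced from 3 control and 3 MIRI samples. The authors deposited whole-number counts per row. Per the file headers, featureCounts 2.0.1 counted read pairs over exons, grouped them by gene name and used no strand. A row can thus hold antisense reads. The submitters' processing notes list Bowtie 0.12.2 with builds mm8 and mm9. Which build the alignments and the counting annotation had is not settled by the sources used here. Reading the positions in GRCm38 is thus an assumption. All 53509 rows were equal in the series table and the sample files.

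Rows were laid over GENCODE M21 exons (GRCm38) with bedtools 2.31.1. A row was given to the gene holding at least 80% of the exon bases it overlaps and at least 50 bases. This named 14919 rows for 11900 genes.

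Counts were tested with edgeR 4.0.16 in R 4.3.3 (TMM, filterByExpr, glmQLFit and glmQLFTest, two-sided, Benjamini-Hochberg, threshold 0.05), after tests on simulated data. All 6 rows passed the filter. DESeq2 1.42.0 and limma 3.58.1 (voom) were alternatives. CPM used total counts. The members and gene lists were chosen with earlier results of these data known. Named from the pathway, arterial, venous and endothelial lists were up to 3 genes with the highest mean CPM and up to 3 with the smallest p, other genes (Ramp1, Ecscr, Myh6, Ddx3y) after their values were seen; the other marker lists are given as sums. The samples were fitted as unpaired, since the sources used here do not say whether replicate numbers pair them. For the rows most like each of the 6, the 3 with the highest r were taken; 1 of these results is not reported here.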

Additional observations from a re-analysis of the deposited data

How the results depend on the processing

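All 6 rows kept a log2 fold change below 0 under other scaling (DESeq2 size factors, upper-quartile, total counts), limma-voom and the DESeq2 test, and none was called there. Ednrb has no value at a mean of at least 50 counts. Without a low-count filter the standard errors were smaller for Ptprb, Calcrl, Ednrb and Tspan12. They were larger for Notch4 (0.196 against 0.164) and Ephb4 (0.147 against 0.119). Without that filter edgeR called Ptprb (-0.97, adjusted p = 1.124e-07), Calcrl (-0.74, 2.474e-04) and Ednrb (-2.46, 1.703e-04) lower. That setting called 124 rows higher and 231 lower, and the DESeq2 test 6 and 79; by position the genes were 4 higher and 28 lower, and 9 and 46. Leaving out 1 library gave 0 to 0 rows higher and 0 to 31 lower (31 without control 1), and 0 to 0 genes higher and 0 to 14 lower (14, 2 and 1 without controls 1, 2 and 3). It moved Notch4 between -0.64 and -0.41, Ephb4 between -0.38 and -0.23, Ptprb between -1.26 and -0.57, Calcrl between -1.44 and -0.07, Ednrb between -2.99 and -1.93 and Tspan12 between -0.34 and 0.11, of which 0.08 and 0.11 were reversed. Crcp ran from -0.05 to 0.09, Lrp5 from -0.24 to 0.12, Ncstn from -0.10 to 0.09, Epha2 from -0.21 to 0.24, Epha7 from -0.47 to 0.12, Svep1 from -0.01 to 0.50 and Unc5b from -0.15 to 0.12. Without control 2 and MIRI 1, chosen after seeing the data, 1 row and 1 gene were called higher, and the signs of Ncstn (0.01), Epha2 (0.33) and Unc5b (0.03) were reversed. No cause was tested.

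A replicate block called 0 rows and 0 genes in either direction and gave -0.52 for Notch4, -0.28 for Ephb4, -0.88 for Ptprb, -0.76 for Calcrl, -2.39 for Ednrb and -0.17 for Tspan12. Same-numbered libraries correlated at -0.154, -0.271 and 0.146 in their deviations from the group means. Samples can be paired without a high value here, so whether the numbers pair them is not settled. With 6, 0 and 7 counts in the MIRI libraries, depth limits Ednrb.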
